A study of Mus musculus with 2 samples.

Results

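The protein-making apparatus was followed through 107 of the 11484 genes measured, in 3 classes chosen by gene symbol alone. The class of ribosomal proteins holds 38 genes whose symbol starts with Rpl or Rps and then a digit, p or x, without the Rps6k kinases. The class of translation factors holds 43 genes whose symbol starts with Eif or Eef and a digit. The class of tRNA synthetases holds 26 genes whose symbol is 1 capital letter, ars and, where present, 1 or 2. The rule reads symbols and no intensity, although it was written with earlier results of these data known. In the RefSeq annotation 90, 71 and 34 protein-coding genes carry such symbols, so 107 of 195 were read by the probes used here, and the elongation factor eEF1A was represented only by enzymes that modify it.

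Expression was read on a 1-colour oligonucleotide array in 2 samples of mouse cells, whose labels give the embryo as stage and C57/ICR as strain for both. The parental cells were at passage 1 in medium with fetal bovine serum (FBS). The stem cells generated by small molecule treatment, called generated stem cells from here on, were at passage 5 in ES medium, and the labels do not name the molecule, its dose or the source tissue of the parental cells. The series text states 3 replicates per sample, but the values analysed form 1 column for each, and whether a column is 1 array or a mean of several is not known here. There was thus no replicate to compare, no test between groups and no p-value, and passage, medium and treatment cannot be told apart.

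Ribosomal proteins and ribosomal RNA form the large subunit, which joins amino acids, and the small subunit, which reads the messenger RNA. Initiation factors bring the first tRNA, the messenger and the small subunit together, elongation factors drive the ribosome along the message, and tRNA synthetases load each tRNA with its amino acid. Embryonic stem cells are known for a modest rate of protein synthesis that climbs on differentiation. The output of the apparatus is tuned by phosphorylation of eIF2, by the eIF4E-binding proteins and by a pyrimidine tract at the start of many of its messages.

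Values are the authors' normalized probe intensities in arbitrary units, each gene being the mean of its probes on the log2 scale. The floor under which a value was called dim was set at the 25th percentile, which was 93.8 for the parental column and 93.4 for the other. A fold against a value under the floor is a lower bound, written "at least", and a gene under both floors has no fold. A member was counted as higher or lower in the generated stem cells at 2-fold or more on the measured values. Over the whole array 9766 genes exceeded the floor at least once, and of these 22.1% were higher and 22.6% lower by that rule, with a median log2 difference of 0.12. Intensities of different genes come from different probes and were not set against each other. The difference of a single probe had an SD of 1.05 (log2) around its gene, over 612 genes with 2 probes, which corresponds to 2.07-fold, and this error covers probes on the same arrays, not separate cultures.

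Marker genes of cell types were read beside the labels. Their lists were chosen with earlier results of these data known, so they are no independent check of the labels. Of 8 pluripotency markers 7 were higher in the generated stem cells, with their summed intensity at 808 in the parental and 97731 in the generated stem cells, and Nanog was the exception at 77.7 and 94.7. All 8 mesenchymal markers were lower (summed 226436 and 1398), with Eln (81.2) and Snai2 (32.8) under the floor in the generated stem cells. Of 5 leukocyte markers 1 was higher, Laptm5 (1287 and 12204), and 2 were lower, C1qa (3198 and 35.7) and Fcer1g (1894 and 206). Their median log2 difference was -0.48, while their sum (6768 and 12832) was higher through Laptm5. All 3 measured epithelial markers were higher (summed 320 and 8380). Markers of cell identity thus differed together with the comparison, and their part in the differences given here was not tested.

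A pyrimidine tract at the first transcribed bases, the 5′ terminal oligopyrimidine tract, is the feature through which ribosomal protein messages are translated together. It was searched in RefSeq promoter windows (GRCm38.p6, 250 bases before to 50 after each annotated start), which matched 86 of the 107 members. A tract was counted where a C within 5 bases of the start was followed by 4 or more further C or T bases on the gene's strand. It was found in 13 of 34 ribosomal protein genes (38.2%), 8 of 34 translation factor genes (23.5%) and 3 of 18 tRNA synthetase genes (16.7%), against 21.2% of all 27025 genes in the table. The 7 windows of 30 bases shown here, 15 before and 15 after the start, belong to the 5 tract-bearing ribosomal protein genes that were 2-fold or more apart and to 2 that hardly differed. Capitals mark the tract as far as it lies in the window.
Rpl38 (chr11:114668565-114668594, plus strand): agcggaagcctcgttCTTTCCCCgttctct
Rps15a (chr7:118116133-118116162, minus strand): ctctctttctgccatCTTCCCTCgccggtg
Rps2 (chr17:24720048-24720077, plus strand): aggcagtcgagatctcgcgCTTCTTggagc
Rpl27a (chr7:109519180-109519209, plus strand): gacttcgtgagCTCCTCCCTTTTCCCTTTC
Rps27 (chr3:90213634-90213663, minus strand): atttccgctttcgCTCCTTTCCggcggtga
Rpl35a (chr16:33056467-33056496, plus strand): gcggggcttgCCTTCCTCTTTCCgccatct
Rpl15 (chr14:18270972-18271001, minus strand): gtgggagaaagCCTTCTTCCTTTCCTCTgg
Genes with such a tract thus lay on both sides of the comparison. Of the 13 ribosomal protein genes with a tract 3 were higher and 2 lower (median log2 difference 0.59), and of the 20 above the floor without one 2 were higher and 0 lower (median 0.28), where 22.1% and 22.6% of all genes were. A match describes letters at an annotated start and not the start used in these cells.

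Most ribosomal protein genes stayed within 2-fold. Of 37 that exceeded the floor at least once, 7 were higher in the generated stem cells (18.9%) and 2 lower (5.41%), beside 22.1% and 22.6% of all genes, and 28 were within 2-fold. Their median log2 difference was 0.32, and 26 of 37 lay above 0 (70.3%), as did 54.2% of all genes. Of the 7, 3 were not standard subunits but gene copies, so of the 31 core ribosomal proteins above the floor 4 were higher and 2 lower, with a median of 0.21.

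Within the large subunit the differences centred on 0. Of 20 genes 10 lay on each side, and the median log2 difference was 0.00. By the 2-fold rule 2 were higher (10%) and 1 was lower (5%), beside 22.1% and 22.6% of all genes. Rpl38, a small protein at the subunit's surface whose loss in mice disturbs translation of Hox messages and patterning of the axial skeleton, was at 1771 in the parental and 7376 in the generated stem cells, 4.16-fold higher. Rpl8 was at 9694 and 24783, 2.56-fold higher. Rpl27a was 2.27-fold lower (5744 and 2530), and its 2 probes fell on the same side, one 2.55-fold lower (3578 and 1403) and the other 2.02-fold lower (9220 and 4563). These 3 genes were past 2-fold, and the other 17 were all within 1.52-fold. Rpl38 and Rpl8 were read by 1 probe each, and the SD of a single probe corresponds to 2.07-fold.

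Among those 17, Rplp0, the stalk protein often used as a reference gene, was at 4688 and 5045, 1.08-fold higher. Rpl14 was at 2368 and 2399, and Rpl4 at 28165 and 35086. Rpl41, the smallest ribosomal protein, was at 56608 and 63615, close to the 16-bit ceiling of 65535, where a further increase could not be read. The lowest of the 17 was Rpl21 (447 and 295, 1.52-fold lower), followed by Rpl5, which binds 5S ribosomal RNA (1374 and 941, 1.46-fold lower). Rpl22, Rpl23, Rpl15 and Rpl35a differed by 1.12-fold, 1.13-fold, 1.09-fold and 1.01-fold. Rpl31, Rpl37a, Rpl24 and Rpl6 were higher by 1.5-fold, 1.34-fold, 1.25-fold and 1.18-fold, Rpl27 was lower by 1.11-fold, and the 2 probes of Rpl30 pointed in opposite directions (2737 and 1919 against 332 and 460). Rpl37 read 94.7 in the parental cells, just over the floor, and 68.0 in the generated stem cells, under it, so its fold had a bound of only 1.01.

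In the small subunit 10 of 11 genes lay above 0, as did 54.2% of all genes, and the median log2 difference was 0.73. By the 2-fold rule 2 of the 11 were higher (18.2%) and 1 lower (9.09%), which is no larger than the 22.1% and 22.6% of all genes. The twelfth gene, Rps3a1, was dim in both samples (47.9 and 36.8). Rps15a was at 527 and 1521, 2.89-fold higher, and Rps2, at the messenger entry side of the subunit, at 269 and 732, 2.72-fold higher. Rps26, which lies by the messenger exit channel, was at 18389 and 34739, and Rps13 at 185 and 351, each 1.89-fold higher and just short of the rule. Rps21 (1394 and 2477), Rps24 (3802 and 6310) and Rps3 (713 and 1099) were 1.78-fold, 1.66-fold and 1.54-fold higher. Rps25 (625 and 891), Rps7 (344 and 399) and Rps16 (251 and 282) were nearer to even, at 1.42-fold, 1.16-fold and 1.12-fold. Rps27 was the lower gene, at 155 and at 75, the latter under the floor, which gives a bound of at least 1.65-fold lower, so its place past 2-fold rests on a value under the floor. Whether the subunits differ from each other was not tested, since genes are not replicates.

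**Figure D1:**
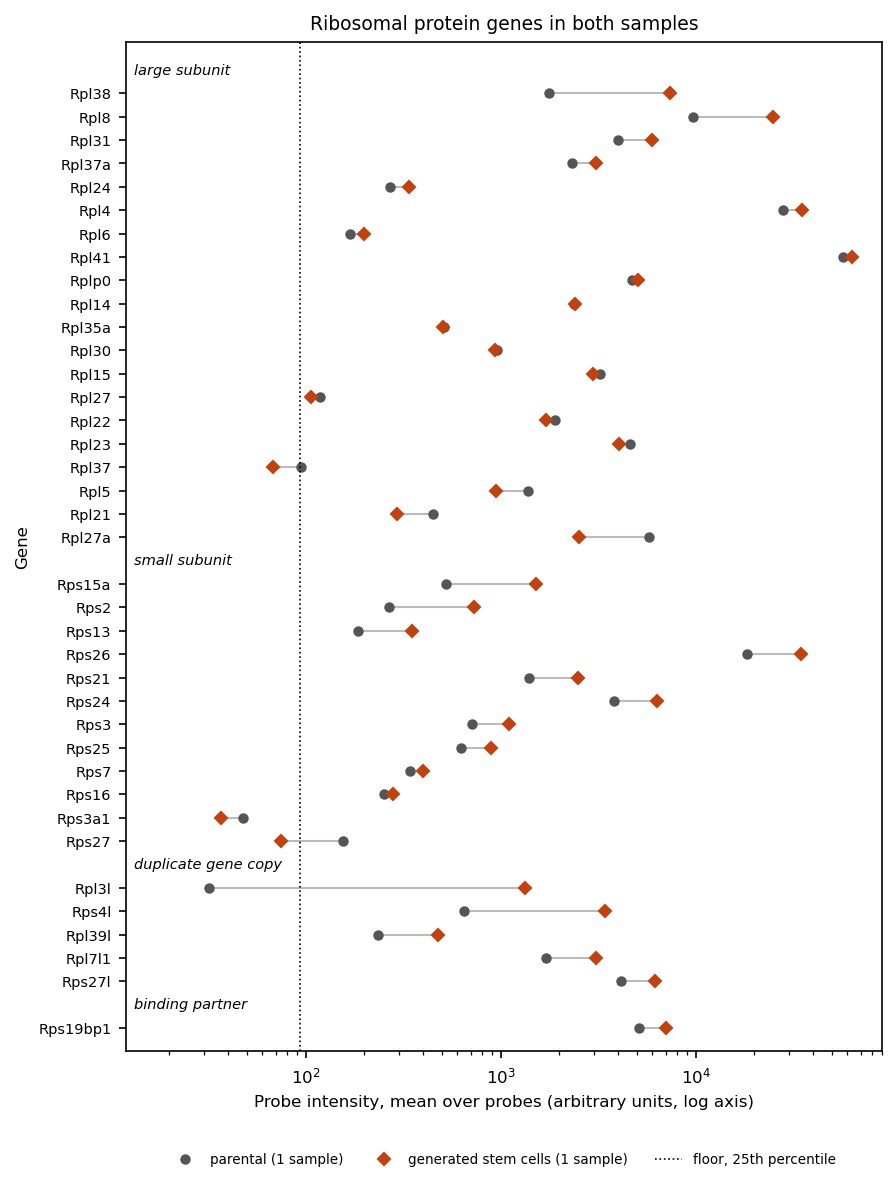
Intensity of each ribosomal protein gene (log axis, arbitrary units) in the parental sample (grey circles) and the generated stem cell sample (orange diamonds), 1 sample each, with the floor as a dotted line. The pairs of symbols lie close together for most genes, with Rpl38 (1771 and 7376), Rps4l (652 and 3421) and Rpl3l (31.8 and 1330) as the widest.

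All 5 duplicate copies of ribosomal protein genes lay above 0, beside 54.2% of all genes. By the 2-fold rule 3 of them were higher, beside 22.1% of all genes, and so few genes set no share apart. Rpl3l, a copy of Rpl3 known from heart and skeletal muscle, read 31.8 (a dim value) in the parental cells and 1330 in the generated stem cells, at least 14.2-fold higher. Rps4l, a relative of Rps4x, was at 652 and 3421, 5.25-fold higher, and Rpl39l, a copy of Rpl39 best known from testis, at 235 and 479, 2.03-fold higher. The call of Rpl39l was lost under 3 of 7 alternative settings. Rps27l, a p53-responsive copy of Rps27, was at 4115 and 6178, 1.5-fold higher, while Rps27 itself lay in the other direction. Rpl7l1, a relative of Rpl7, was 1.81-fold higher, but 1 probe gave 2811 and 10479 and the other 1042 and 913. The parent genes Rpl3, Rpl39, Rpl7 and Rps4x were not analysed here. Rps19bp1, a nucleolar binding partner of Rps19 and no ribosomal protein, was at 5148 and 7042. Of the 38 genes of the class 25 have annotated pseudogenes named after them, Rpl31 with 23 and Rpl21 with 15. Probe sequences were not used here, so signal from near-identical copies cannot be told apart from that of the gene.

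By the 2-fold rule larger shares of the translation factors differed in both directions than of the ribosomal proteins (18.9% higher and 5.41% lower). Of 42 above the floor 11 were higher (26.2%) and 8 lower (19.0%), beside 22.1% and 22.6% of all genes, and 23 were within 2-fold, with a median log2 difference of 0.56. At 4-fold or more 3 of 37 ribosomal proteins were higher and 0 lower. Of the 42 translation factors 2 were higher and 5 lower at that size, where 7.52% and 10.3% of all genes were. The translation factors thus exceeded the ribosomal proteins downwards only. Counts this small set neither class apart from the array. The large differences downwards were in single subunits and alternative forms, namely Eif4e3, Eef1e1, Eif4g3, Eif3a and Eif1b, and those upwards in Eif3b and Eif1ad.

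eIF1 and eIF1A keep the scanning small subunit open until the start codon is found. Eif1b, 1 of the genes for eIF1, was at 13994 in the parental and 2884 in the generated stem cells, 4.85-fold lower. The eIF1A genes were within 2-fold, Eif1ax at 11850 and 20078 (1.69-fold higher) and Eif1a at 5974 and 6946 (1.16-fold higher). Eif1ad, which carries an eIF1A-like domain and acts in small subunit maturation, was at 1352 and 6502, 4.81-fold higher. Of the 3 eIF1 and eIF1A genes 0 were higher and 1 was lower, beside 22.1% and 22.6% of all genes, with Eif1ad counted apart from them.

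eIF2 carries the initiator tRNA as a complex with GTP, and eIF2B reloads it with GTP. Of 2 measured eIF2 subunits 1 was lower, where 22.6% of all genes were. It was the beta subunit gene Eif2s2, by 2.24-fold (416 and 186), a call that was lost with an offset of 50. The X-linked gamma subunit gene Eif2s3x was within 2-fold (6532 and 4375, a ratio of 1.49). Of the 4 measured eIF2B genes, each read by 1 probe, 2 were higher, where 22.1% of all genes were. They were the gamma subunit gene Eif2b3 by 3.40-fold (1841 and 6261) and the delta subunit gene Eif2b4 by 2.62-fold (5799 and 15194). Counts over so few genes set no complex apart from the array. Eif2b5, the catalytic subunit, was at 2486 and 4323 (1.74-fold higher), and Eif2b2 at 162 and 155. Eif2d, which can place tRNA on the ribosome without eIF2, went from 78.3, under the floor, to 169, at least 1.80-fold higher. Eif2a, another factor of non-standard initiation, was at 4910 and 4557.

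Of the kinases that phosphorylate eIF2 under stress 3 were measured. The double-stranded RNA sensor Eif2ak2 (PKR) was at 594 and 227, 2.62-fold lower. The sensor of the endoplasmic reticulum Eif2ak3 (PERK) was at 1991 and 1177, 1.69-fold lower, and the heme-regulated kinase Eif2ak1 at 2248 and 3704, 1.65-fold higher. Downstream of them, in a list of other pathway genes, Ddit3 (CHOP) was 9.96-fold lower (4571 and 459) and Trib3 2.44-fold lower (8748 and 3581). The transcription factor gene Atf4 was at 10148 and 14144 and the ATF4 target Chac1 at 12583 and 7219, both within 2-fold. Ddit4 (2394 and 1442) and Ppp1r15a (505 and 564), from the same list, were within 2-fold too. Of the genes above the floor in that list 10.8% were lower, beside 22.6% of all genes.

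eIF3 is the largest initiation factor and holds the small subunit ready for the messenger. Of 8 measured subunits 3 were higher and 1 lower, beside 22.1% and 22.6% of all genes, and the median log2 difference was 0.82. Eif3b, which with Eif3a forms the core that contacts the ribosome, was at 344 and 1970, 5.72-fold higher. Eif3d, a cap-binding subunit, was 2.39-fold higher (6933 and 16595) and Eif3k 2.26-fold higher (6716 and 15164). Eif3h (8145 and 15214) and Eif3c (35086 and 58237) were 1.87-fold and 1.66-fold higher, the latter near the scanner's ceiling. Eif3m (10639 and 13234) and Eif3l (5601 and 5235) differed by 1.24-fold and 1.07-fold. Eif3a, the scaffold of the complex, went the other way, at 6197 and 1012, 6.13-fold lower. Each of these 8 genes was read by 1 probe.

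The eIF4 group recognizes the capped end of the messenger. Of 7 genes above the floor none was higher and 2 were lower, beside 22.1% and 22.6% of all genes. Eif4e3, an unusual member of the cap-binding family, was at 1081 and 64.4, at least 11.6-fold lower. Eif4g3, a form of the scaffold eIF4G, was at 2356 and 350, 6.73-fold lower. The cap-binding protein gene Eif4e was at 849 and 1419, 1.67-fold higher, and the helicase gene Eif4a1 at 30667 and 27850, 1.10-fold lower, while its relative Eif4a2 was dim in both samples (44.8 and 36.8). Eif4e2 was read above the floor by 1 of 2 probes, at 18426 and 12091, 1.52-fold lower. The 2 probes of the scaffold-like Eif4g2 pointed in opposite directions, 279 and 852 in one against 1938 and 1161 in the other, as did those of the helicase cofactor Eif4b, 4313 and 12965 against 4492 and 3378.

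The eIF4E-binding proteins, which block cap-dependent initiation until mTORC1 phosphorylates them, were all within 2-fold. Eif4ebp1 was at 17208 and 33512, 1.95-fold higher and just short of the rule. Eif4ebp3 was at 960 and 1446, 1.51-fold higher. Eif4ebp2 was even in both probes, at 181 and 189 and at 273 and 277.

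Eif5a encodes eIF5A, which carries the amino acid hypusine and helps ribosomes through difficult sequences. Its probe above the floor read 26837 and 60604, 2.26-fold higher with the second value near the ceiling, and its other probe was dim in both samples (22.4 and 79.8). The 2-probe mean gave 2.83-fold. The enzymes that make hypusine come from a list of other pathway genes. Of those above the floor in that list 21.6% were higher, near the 22.1% of all genes. Dhps was higher by 3.31-fold (797 and 2641) and Dohh by 4.11-fold (581 and 2388), each read by 1 probe. Eif6, which keeps the subunits apart until the large one is mature, was at 18490 and 30919 (1.67-fold higher), and Eif5 at 168 and 244 (1.45-fold higher).

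Eef2, the elongation factor that moves the ribosome by 1 codon, was at 51049 and 59939, 1.17-fold higher and near the scanner's ceiling. Its inhibitory kinase gene Eef2k went from 135 to 46.1, under the floor, at least 1.44-fold lower. Of the 5 modifiers and partners of elongation factors 3 were higher and 2 lower, beside 22.1% and 22.6% of all genes. So few genes set no share apart. The higher ones were the 3 measured methyltransferases, each read by 1 probe. Eef1aknmt was higher by 2.52-fold (1972 and 4979), Eef2kmt by 2.47-fold (457 and 1129) and Eef1akmt1 by 2.43-fold (2975 and 7224). Eef1e1, named as an elongation factor partner and known as a scaffold (AIMP3) of the complex that gathers several tRNA synthetases, was at 2815 and 412, 6.82-fold lower.

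**Figure D2:**
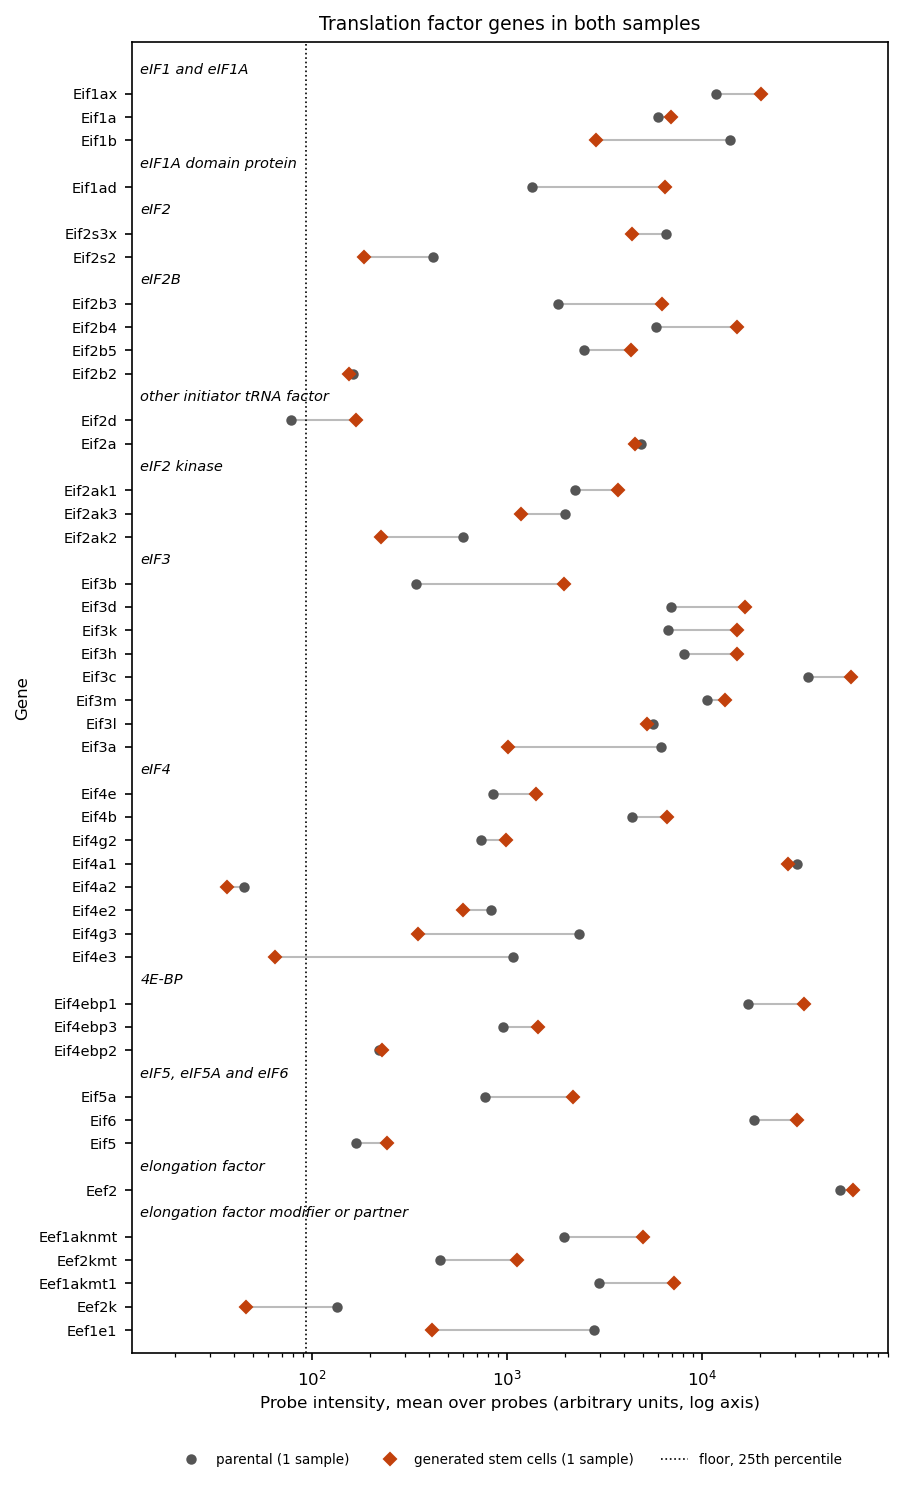
Intensity of each translation factor gene (log axis, arbitrary units) in the parental sample (grey circles) and the generated stem cell sample (orange diamonds), grouped by complex, with the floor as a dotted line. The order of the symbols turns within complexes, as between Eif3b (344 and 1970) and Eif3a (6197 and 1012).

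Most tRNA synthetases were within 2-fold, and those past it were higher. Of 26 genes, all above the floor in both samples, 8 were higher (30.8%) and 0 lower, beside 22.1% and 22.6% of all genes, and the other 18 were within 2-fold. The median log2 difference was 0.64, and 20 of 26 genes lay above 0 (76.9%), as did 54.2% of all genes. No test was possible with 1 sample per group, so the count of 0 describes these 2 samples only.

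All 12 enzymes of the cytosolic set lay above 0, beside 54.2% of all genes, with a median log2 difference of 0.75. Past 2-fold were 3 of the 12 (25%), near the 22.1% of all genes. In this set Gars and Kars also supply mitochondria. Vars, which loads valine, was at 176 in the parental and 1127 in the generated stem cells, 6.41-fold higher. Cars (cysteine) was at 1291 and 2922, 2.26-fold higher, and Mars1 (methionine) at 3848 and 8110, 2.11-fold higher. Wars (tryptophan) and Kars (lysine) lay just short of the rule, at log2 differences of 0.998 and 0.997. The 2 probes of Wars gave 1.98-fold (710 and 1406) and 2.02-fold (126 and 255), and those of Kars 2.29-fold (9467 and 21660) and 1.74-fold (4970 and 8657).

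The other cytosolic enzymes were nearer to even. Lars (leucine) was at 5624 and 10183, 1.81-fold higher, and Gars (glycine) at 15535 and 24101, 1.55-fold higher. Yars (tyrosine, 6104 and 7727), Sars (serine, 19892 and 22948), Aars (alanine, 224 and 253) and Nars (asparagine, 20898 and 23477) were higher by 1.27-fold, 1.15-fold, 1.13-fold and 1.12-fold. For Hars (histidine) 1 probe gave 8083 and 15377 and the other 3508 and 2523, so that its mean of 1.17-fold averages opposite readings.

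Of the multi-synthetase complex, Lars, Mars1 and Kars were thus higher by 1.81-fold to 2.11-fold. Its other members in the pathway list were Aimp2, a scaffold at 4299 and 8100 (1.88-fold higher), and Eprs, the fused enzyme for glutamate and proline, at 9522 and 6297 (1.51-fold lower). The scaffold gene Eef1e1 lay furthest from them, at 6.82-fold lower.

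The mitochondrial enzymes, encoded by separate nuclear genes, were more spread, with a median log2 difference of 0.52. Of 14 genes 8 lay above 0 (57.1%), near the 54.2% of all genes, and 5 were 2-fold or more higher (35.7%), beside 22.1% of all genes. Sars2 (serine) was at 621 and 4671, 7.52-fold higher. Aars2 (alanine) was at 870 and 3193, 3.67-fold higher, and Tars2 (threonine) at 632 and 2095, 3.31-fold higher. Ears2 (glutamate) was at 782 and 2195, 2.81-fold higher, and Yars2 (tyrosine) at 904 and 2382, 2.64-fold higher. Fars2 (phenylalanine) was at 1307 and 2415, 1.85-fold higher and short of the rule.

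The remaining mitochondrial enzymes were within 2-fold. Lars2 (862 and 618) and Cars2 (684 and 499) were lower by 1.4-fold and 1.37-fold, and Rars2 (1429 and 1318) and Nars2 (208 and 200) by 1.08-fold and 1.04-fold. Mars2, with a mean 1.49-fold lower, had 1 probe at 164 and 252 and the other at 139 and 40.8. Vars2 was 1.55-fold higher, Pars2 1.32-fold higher (109 and 144) and Hars2 1.20-fold lower (126 and 105). For 9 amino acids both the cytosolic and the mitochondrial enzyme were measured. For alanine, serine and tyrosine the mitochondrial gene had the higher log2 difference, and for the other 6 the cytosolic one.

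**Figure D3:**
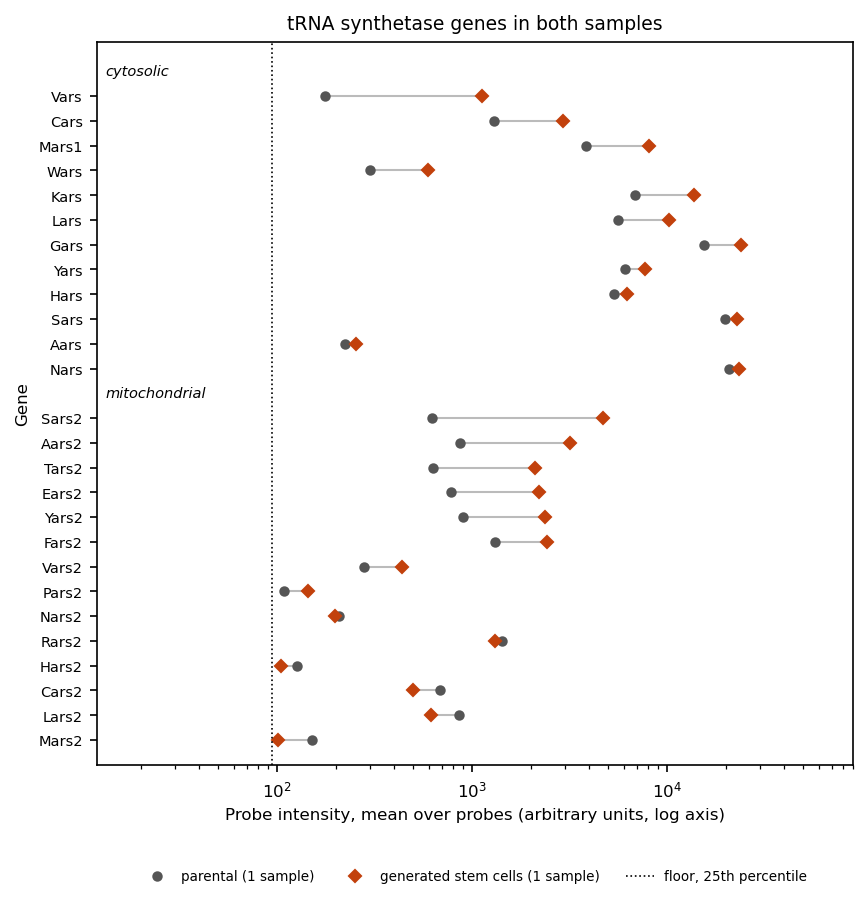
Intensity of each tRNA synthetase gene (log axis, arbitrary units) in the parental sample (grey circles) and the generated stem cell sample (orange diamonds), with cytosolic and mitochondrial enzymes apart and the floor as a dotted line. The diamond lies to the right of the circle for all 12 cytosolic enzymes and for 8 of 14 mitochondrial ones.

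Several cytosolic synthetase genes are known targets of ATF4 through an amino acid response element, searched here as TGATGNAA on both strands of the promoter windows. It was found in 3 of the 6 cytosolic synthetase genes with a window, in 0 of the 12 mitochondrial ones, and in 4.51% of all genes. Of the other classes 2 of 34 translation factor genes held it (5.88%), Eef2k and Eif2s3x, and 0 of 34 ribosomal protein genes. The 3 windows are shown because these are the cytosolic genes that hold the element, which is in capitals. In Aars and Gars it stands on the opposite strand and so reads in reverse.
Aars (chr8:111033840-111033869, plus strand): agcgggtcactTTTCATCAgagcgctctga
Gars (chr6:55037960-55037989, plus strand): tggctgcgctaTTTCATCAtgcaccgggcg
Yars (chr4:129189895-129189924, plus strand): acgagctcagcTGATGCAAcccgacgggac
None of these 3 genes reached 2-fold, with 1.13-fold, 1.55-fold and 1.27-fold as given for Aars, Gars and Yars. Of the cytosolic genes past 2-fold, Vars and Cars had no window and were not searched, and the window of Mars1 did not hold the element. The E box CACGTG, the site of MYC family proteins among others, was found in 9 of 34 translation factor genes (26.5%), 2 of 34 ribosomal protein genes (5.88%) and 2 of 18 synthetase genes (11.1%), against 8.09% of all genes. Of the 9 translation factor genes with an E box, 3 were higher (Eif5a, Eif3k and Eef1aknmt) and 3 lower (Eif3a, Eif1b and Eef2k). Of the 24 above the floor without one, 6 were higher and 4 lower, where 22.1% and 22.6% of all genes were. The calls of Eif3k and Eef2k were lost under at least 1 alternative setting. Base composition, on which the frequency of such letters depends, was not taken into account.

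**Figure D4:**
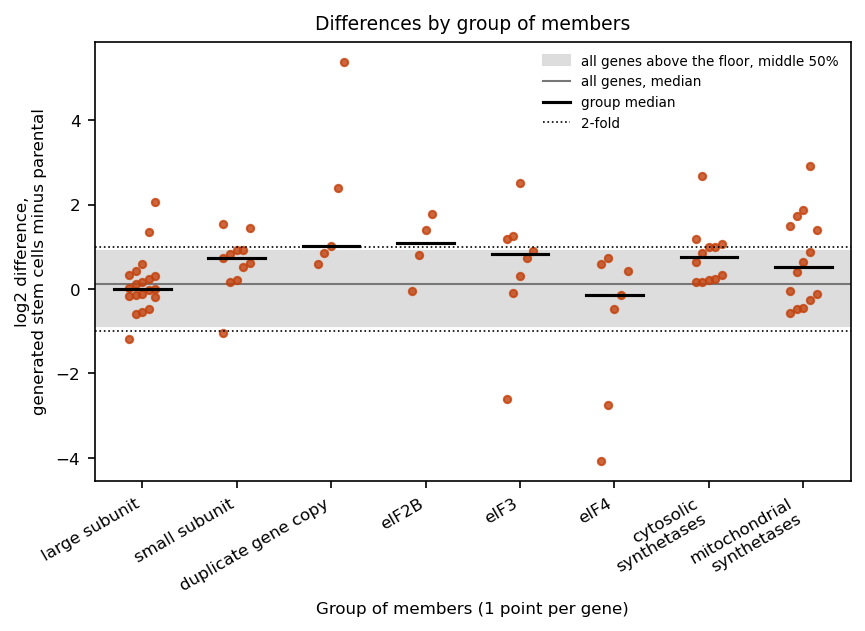
Log2 difference (generated stem cells minus parental) of each gene above the floor in 8 groups of members, 1 point per gene, with group medians as black bars and the middle 50% of all genes (-0.87 to 0.90) in grey. The median of the large subunit lies at 0.00, that of the small subunit at 0.73, of eIF2B at 1.09 and of the cytosolic synthetases at 0.75.

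Reading by a second probe set the limit for single genes. Of 13 members with 2 probes, 11 had both above the floor in at least 1 sample, and in 5 of these the probes pointed the same way (45.5%), as in 66.8% of 612 such genes overall. The SD of 1 probe was 1.03 in the members and 1.05 overall. The agreeing pairs were those of Eif4ebp2, Kars, Rpl27a, Vars2 and Wars. The other 94 members had 1 probe and no such check.

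**Figure D5:**
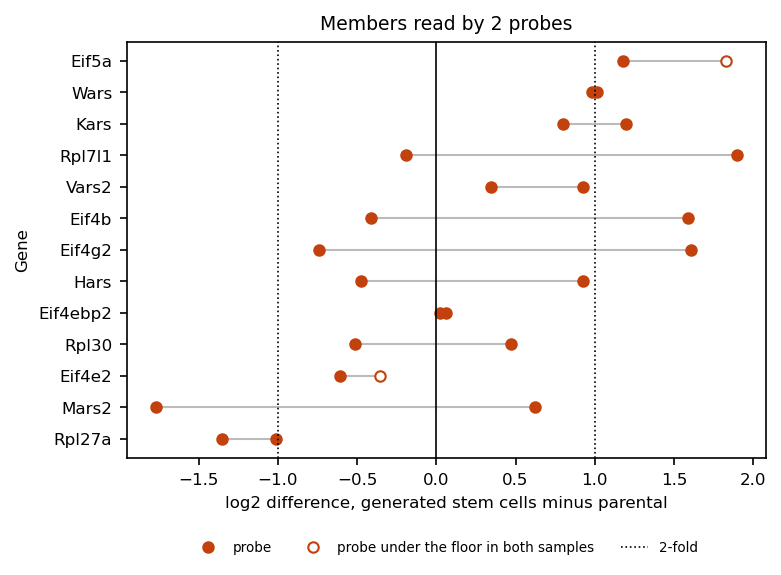
Log2 difference (generated stem cells minus parental) of each probe for the 13 members read by 2 probes, with open circles for probes under the floor in both samples and dotted lines at 2-fold. The probes of Rpl27a both lie at or past -1 (-1.35 and -1.01), and those of Mars2, Eif4g2 and Eif4b lie on opposite sides of 0.

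Other genes of translation and its control were taken from a list of 66 symbols, of which 42 were measured and 37 lay above the floor. Of the 37, 8 were higher (21.6%), 4 were lower (10.8%) and 25 were within 2-fold, with a median log2 difference of 0.47. The share of higher genes was thus that of the whole array (22.1%), and the share of lower ones was below it (22.6%). Besides Dhps and Dohh, the higher genes were Mycn, a MYC family factor that drives ribosome production (157 and 1758, 11.2-fold), Ubtf, a factor of ribosomal RNA transcription (741 and 2799, 3.77-fold), and Rrn3, which recruits RNA polymerase I (3061 and 9625, 3.14-fold). The mTORC1 inhibitor gene Tsc2 (2956 and 7944, 2.69-fold), the poly(A)-binding protein gene Pabpc1 (5784 and 13787, 2.38-fold) and the termination factor gene Etf1 (2654 and 6085, 2.29-fold) were higher as well. Lower, besides Ddit3 and Trib3, were the kinase gene Rps6ka3 (620 and 231, 2.68-fold) and Pdcd4, an inhibitor of the helicase eIF4A (2345 and 940, 2.50-fold). Of the ribosome-associated genes outside the symbol rule, Fau, which encodes a ribosomal protein fused to a ubiquitin-like one, was at 7248 and 10794, and the mTORC1 subunit gene Rptor was at 6495 and 9224, both within 2-fold.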

How the data were processed

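Total RNA of 2 samples was amplified, labelled with Cy5 and read on a Phalanx Mouse Whole Genome OneArray (v2), per the labels. The intensity values deposited by the authors are on a linear scale. Scanner, background correction, normalization and probe filter were not given in the sources used here. Both columns had nearly equal medians (304 and 305), so a difference in total signal between the samples could not be seen. Gene symbols came from the platform's annotation (12380 of 13989 probes), and those of all 107 members equalled the RefSeq symbols (GRCm38.p6). Probes of a gene were averaged as log2 values. With 1 sample per group, differences were counted by size with no test, and precision is limited by the number of arrays. Members, lists and tests were chosen with earlier results of these data known. Genes were named by a rule: members 2-fold or more apart, those nearest 2-fold, those nearest the ceiling, paralogs, and subunits of eIF2, eIF2B, eIF3 and eIF4. The remaining members were named after their values were seen, to account for every gene. The counting code was run on simulated data with noise far below the probe error of these data and without the floor used here. That run checks the code and does not show how often the 2-fold rule calls a gene falsely. Python 3.11.15, pandas 2.3.3, NumPy 2.4.6 and statsmodels 0.14.6 were used. Alternatives were other scalings, probe choices, floors, offsets, size rules and member lists.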

Additional observations from a re-analysis of the deposited data

How the results depend on the processing

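The counts of members 2-fold or more apart were recomputed under 13 alternative settings and 2 more chosen after seeing the data (centring each class of probe identifiers, and leaving out members with discordant probes). The member list by current symbols was identical. Of 135 recomputed counts and medians 115 stayed within 1.5 times the count given or within the probe error of the median, and 20 did not. The setting with 2 or more probes held only 3 ribosomal proteins, 5 translation factors and 5 tRNA synthetases, so most called genes were not in it. Of all genes 17.1% were higher and 19.4% lower there, and 7.52% and 10.3% at 4-fold. Under the other settings 19.3% to 25.4% of all genes were higher and 19.7% to 25.6% lower. For ribosomal proteins the 7 higher became 0 among genes with 2 or more probes, 3 at 4-fold and 4 with core components only. The 2 lower became 1 with median centring, with 2 or more probes, with an offset of 50, with the floor at the median and when dim values were raised to the floor, and 0 at 4-fold, and the median log2 difference became -0.021 with 2 or more probes (3 genes). For translation factors the 11 higher became 1 with 2 or more probes, 2 at 4-fold and 7 with core components only, and the 8 lower became 0, 5 and 5. For tRNA synthetases the 8 higher became 0 with 2 or more probes and 2 at 4-fold, and the median of 0.64 became 0.87 with the brightest probe per gene and 0.89 with the floor at the median. No log2 difference of a member past 2-fold changed sign under these settings. The calls of Eef2k, Eif2d, Eif2s2, Eif3k, Mars1, Rpl39l and Rps27 were lost under at least 1 of 7 scaling, probe, offset or bound settings, and the other 29 of 36 were kept under all 7. No paired analysis was possible because each group had 1 sample. No group had replicates to leave out, and how far intensities lay above background was not analysed here.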
